A study of Mus musculus with 8 samples.

Results

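The 10 claudins described here (Cldn1, Cldn2, Cldn3, Cldn4, Cldn5, Cldn7, Cldn8, Cldn12, Cldn15 and Cldn23) were taken as every non-control probe of the array that carries 1 of these gene names. They are 10 of the 23 claudin names and 10 of the 35715 names on the array, and they are read by 12 probes. Ileal RNA of female mice was hybridised to 8 Agilent mouse arrays with 1 colour, 4 for a doxycycline group and 4 for a saline group. The doxycycline mice carried the strain label Rosa26rtTA/+, Hprt Myc-Tnk1tg, an inducible knock-in of the kinase TNK1, and received 50 µg of doxycycline per g of body weight in 100 µl by intraperitoneal injection. The saline mice carried the same strain label, although their source names and titles call them WT, and received 100 µl of 0.9% NaCl by the same route. Both groups were analysed 24 h after injection. Both carry the transactivator and the transgene by their strain label, no group received doxycycline without the transgene, and age is not given. The transactivator sits at Rosa26, a locus active in many cell types, so the labels do not restrict induction to the epithelium. Separate animals behind the arrays are not stated in the labels, and a p-value here reflects only the scatter among these arrays, which may be technical. The RNA came from the whole ileum and not from isolated epithelium.

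Claudins are small membrane proteins that polymerise into the strands of the tight junction, the seal between neighbouring epithelial or endothelial cells. Some members tighten that seal, while others form pores that let chosen ions or water pass between cells, and the mix of members sets how leaky a tissue is. In the small intestine the pore formers CLDN2 and CLDN15 return sodium to the lumen, where sodium-coupled nutrient uptake uses it. Occludin, angulins and JAM proteins share the junction with them, and the zonula occludens scaffolds tie the strands to actin.

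The promoters of 4 members are shown because the results turn on them: Cldn15 and Cldn2 are the pore formers, Cldn3 is the other member that fell, and Cldn4 is its direct neighbour in the genome. Each runs 5′ to 3′ from 250 bases before the transcription start to 50 bases after it, in RefSeq's GRCm38.p6 assembly. They lie at chr5:136967619-136967918 on the plus strand for Cldn15, chrX:139800558-139800857 on the plus strand for Cldn2, chr5:134985964-134986263 on the plus strand for Cldn3, and chr5:134946885-134947184 on the minus strand for Cldn4. Capitals mark matches on either strand to 1 of 9 searched motifs.
Cldn15: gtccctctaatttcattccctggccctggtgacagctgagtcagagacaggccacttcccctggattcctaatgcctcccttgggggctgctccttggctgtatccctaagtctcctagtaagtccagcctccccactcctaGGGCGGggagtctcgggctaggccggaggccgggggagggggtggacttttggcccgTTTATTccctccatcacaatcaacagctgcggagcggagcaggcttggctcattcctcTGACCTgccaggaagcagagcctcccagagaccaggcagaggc
Cldn2: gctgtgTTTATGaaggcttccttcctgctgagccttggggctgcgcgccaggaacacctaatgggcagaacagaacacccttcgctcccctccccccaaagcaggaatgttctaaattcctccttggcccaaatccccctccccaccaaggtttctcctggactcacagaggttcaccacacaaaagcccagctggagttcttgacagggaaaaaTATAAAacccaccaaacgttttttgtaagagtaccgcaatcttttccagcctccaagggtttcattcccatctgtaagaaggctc
Cldn3: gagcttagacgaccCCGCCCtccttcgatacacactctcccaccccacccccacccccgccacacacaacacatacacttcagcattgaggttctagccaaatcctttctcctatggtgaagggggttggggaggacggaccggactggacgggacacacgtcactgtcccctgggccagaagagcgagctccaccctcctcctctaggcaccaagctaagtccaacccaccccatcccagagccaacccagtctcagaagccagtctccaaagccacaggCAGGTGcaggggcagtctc
Cldn4: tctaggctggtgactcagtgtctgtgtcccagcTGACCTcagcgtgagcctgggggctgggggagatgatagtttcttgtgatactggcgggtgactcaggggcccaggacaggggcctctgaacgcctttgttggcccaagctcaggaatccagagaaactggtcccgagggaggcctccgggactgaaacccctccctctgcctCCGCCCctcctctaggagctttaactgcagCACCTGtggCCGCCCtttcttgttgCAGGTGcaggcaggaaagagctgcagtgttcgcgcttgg
RefSeq promoters were matched for 8 of the 10 members (all but Cldn8 and Cldn23), with 11 start sites among them. The CDX pattern TTTATN, bound by intestinal caudal-type homeobox factors, occurred in the promoters of 2 members, Cldn15 at -51 to -46 and Cldn2 at -244 to -239, and in 39.9% of all 32851 promoters. The Cldn2 promoter also held the TATA box TATAAA at -35 to -30, which reads as the CDX pattern on the other strand. TATAAA occurred in 13.6% of all promoters. The half-site AGGTCA of nuclear receptors lay in the promoters of Cldn15 (at 8 to 13 after the start), Cldn4 and Cldn7, and in 16.3% of all promoters. The E-box CACCTG, recognised by Snail repressors, lay in those of Cldn3 (at 32 to 37 after the start), Cldn4 and Cldn7, and in 20.2% of all. The GC box GGGCGG was found for 7 members and in 35.7% of all promoters. HNF1's GTTAAT was found for Cldn1 (7.1% of all), HNF4's CAAAGT for Cldn12 (14.4% of all), the Grainyhead pattern AACCNGTT for Cldn5 (2.09% of all), and the GATA pattern AGATAA for 0 members (11.2% of all). These matches describe the letters of the windows only.

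Levels below are log2 processed signal minus the 75th percentile of the same array, so that 0 stands for that percentile. A level describes 1 probe across arrays and is not set against that of another probe. Spots well above background made up 56.0 to 58.2% of probe spots on the doxycycline arrays and 41.1 to 44.6% on the saline arrays. The lowest level counted as well above background lay at -4.89 to -4.51 on the doxycycline arrays and at -3.07 to -2.57 on the saline arrays, below every level of the probes used to test the 9 claudin members. On the slide, row 1 holds every doxycycline array and row 2 every saline array, and an effect of row cannot be told apart from one of treatment. The probe of Tnk1 that differed rose to 0.64 ± 0.23 in doxycycline ilea, against -2.15 ± 0.40 in saline ilea (SD, n = 4 each; limma, adjusted p over all probes = 4.16e-04), while a second probe of the gene stood at 2.13 ± 0.23 in doxycycline ilea and 2.58 ± 0.26 in saline ilea (adjusted p = 0.143). Hprt, the locus of the transgene, stood at 4.34 ± 0.14 in doxycycline ilea and -1.67 ± 0.58 in saline ilea (SD, n = 4 each), a 64.6-fold rise (limma, adjusted p over all probes = 5.55e-05). Saline replicates 2 and 4 stood apart in cell markers: B cell genes averaged 2.77 log2 units above the saline mean in saline replicate 2, and villus enterocyte genes averaged -1.0 relative to it in saline replicate 4. Claudin differences are therefore also given without these 2 arrays.

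Of the 10 members, 9 were tested, and all 9 were well above background on all 8 arrays. In doxycycline ilea 2 of the 9 fell, Cldn15 and Cldn3, and 0 rose (limma, Benjamini-Hochberg adjusted p under 0.05 over 21362 genes). Over all genes tested 13.8% passed this threshold, 5.94% as higher and 7.9% as lower. At an unadjusted p under 0.05 there were 4 members, all lower: Cldn15, Cldn3, Cldn5 and Cldn2. Such p-values were common among all genes in either direction. Cldn2 (limma unadjusted p = 0.0174) ranked 4385 by p among the 21362 tested, and Cldn8 (0.063) ranked 7334. The share of all genes at an unadjusted p under 0.05, in total or as lower, was not counted. The count of 4 is therefore not read as setting the members apart. The median log2 difference of the 9 was -0.69, with a range of -2.0 to 0.16, beside a median of 0.02 over all genes, and 6 of the 9 lay under 0 beside 48.7% of all genes. The doxycycline and saline values did not overlap for 3 members, all lower with doxycycline, beside 21.9% of all genes in either direction and 13% in the lower direction.

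**Figure D1:**
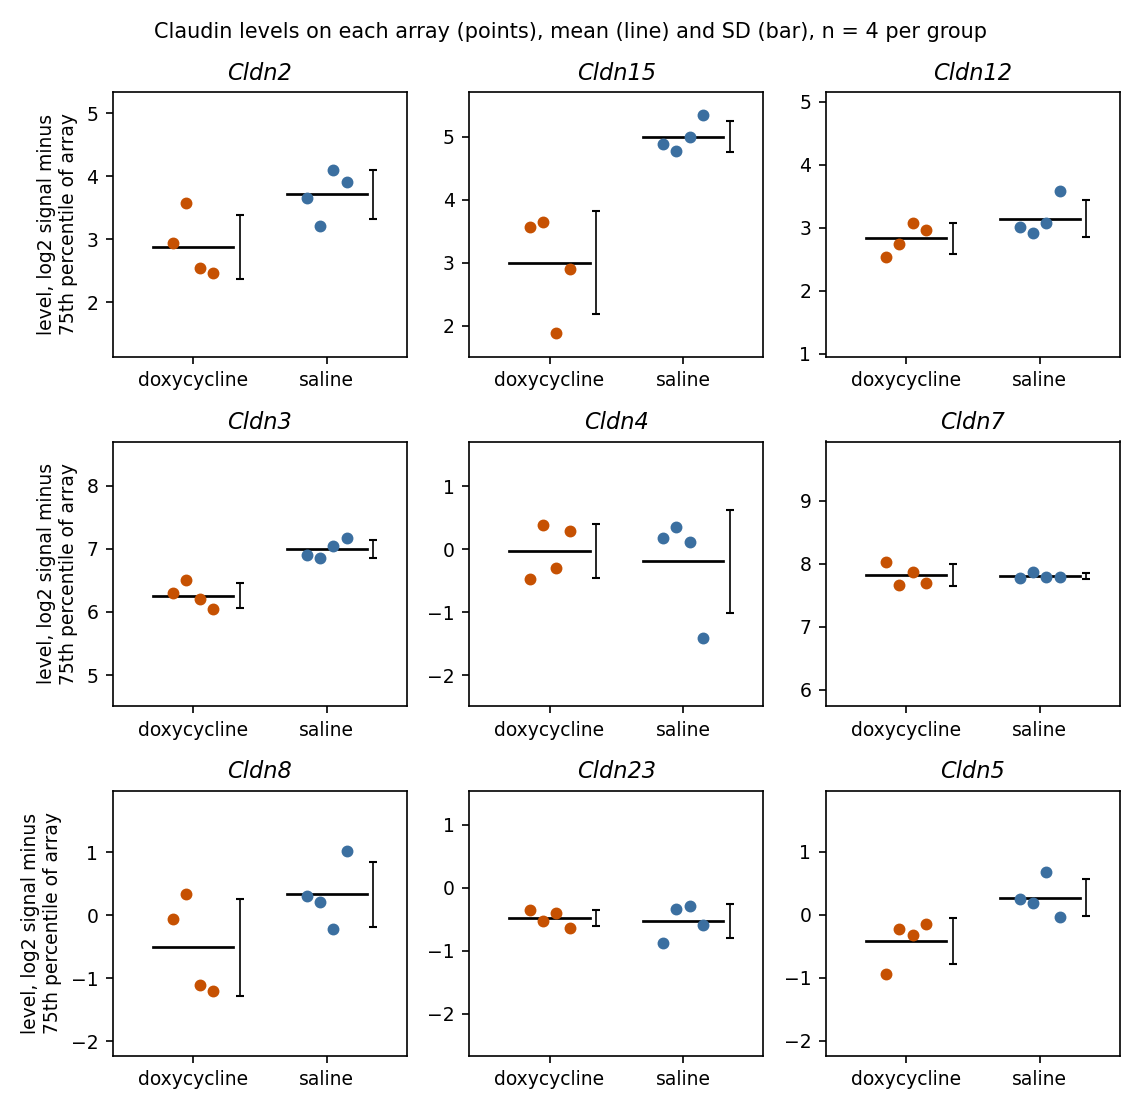
Level of each tested claudin on each array (log2 signal minus the array's 75th percentile), doxycycline arrays left and saline arrays right, with the group mean as a line and 1 SD as a bar (n = 4 each). Every panel spans the same height of log2 units; the groups stand clear of each other for Cldn15, Cldn3 and Cldn5 and coincide for Cldn7.

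Cldn15, which forms sodium-permeable pores along the small intestine, had the lowest difference of all members. Its probe (mm9 chr5:137451465-137451524, plus strand) read 3.56, 3.65, 1.88 and 2.90 in doxycycline ilea, against 4.88, 4.77, 4.99 and 5.34 in saline ilea. Every doxycycline array lay under every saline array, and the doxycycline arrays were the more scattered, with replicate 3 lowest. The means were 3.0 ± 0.82 in doxycycline ilea and 5.0 ± 0.25 in saline ilea (SD, n = 4 each). Cldn15 thus fell by 2.0 on the log2 scale (SE 0.370, 95% interval -2.84 to -1.16), 3.99-fold lower (interval 2.23 to 7.14). The limma adjusted p was 0.0104, and an exact two-sided permutation test of the 8 arrays gave p = 0.0286, the smallest that 4 against 4 can give. Only 0.796% of all genes tested had a lower difference. Without saline replicates 2 and 4 the difference was -1.94 with an adjusted p of 0.0571, no longer past the threshold. Leaving out any 1 array left it at -2.22 to -1.62 with adjusted p between 0.00837 and 0.0327.

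Cldn2, the cation and water pore of crypts and of leaky epithelia, differed in the same direction without passing the threshold. Its brighter probe (mm9 chrX:136345244-136345303, plus strand) read 2.94, 3.57, 2.54 and 2.47 in doxycycline ilea, against 3.66, 3.20, 4.09 and 3.90 in saline ilea. Doxycycline replicate 2 stood above saline replicate 2, and the other 3 doxycycline arrays stood below all saline arrays. The difference was -0.83 (SE 0.287, 95% interval -1.48 to -0.18, limma adjusted p = 0.0849), and the exact permutation test gave p = 0.0571. Without doxycycline replicate 2 it was -1.06 with an adjusted p of 0.0348, past the threshold, and without saline replicates 2 and 4 it was -0.99 with an adjusted p of 0.111. A second Cldn2 probe (mm9 chrX:136343889-136343948, plus strand) differed by -0.69 (SE 0.387, adjusted p over all probes = 0.262). Cldn12, linked with CLDN2 to calcium passage in the gut, ranged over 2.53 to 3.08 in doxycycline ilea and 2.92 to 3.58 in saline ilea on its probe (mm9 chr5:5505223-5505282, minus strand). These ranges overlapped, with a difference of -0.31 (SE 0.198, 95% interval -0.76 to 0.13, limma adjusted p = 0.313). It was -0.17 without saline replicate 4 alone and -0.21 without saline replicates 2 and 4.

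Cldn3, a sealing claudin abundant along the intestinal epithelium, was the second member that fell. Its probe (mm9 chr5:135463284-135463342, plus strand) read 6.30, 6.5, 6.20 and 6.04 in doxycycline ilea, against 6.91, 6.86, 7.04 and 7.17 in saline ilea. The groups did not overlap, and both were narrow, at 6.26 ± 0.19 in doxycycline ilea and 6.99 ± 0.14 in saline ilea (SD, n = 4 each). Cldn3 fell by 0.73 on the log2 scale (SE 0.156, 95% interval -1.09 to -0.38), 1.66-fold lower (interval 1.3 to 2.12), with a limma adjusted p of 0.0177 and an exact permutation p of 0.0286. Of all genes tested 10.2% had a lower difference. The call was lost without doxycycline replicate 3 (-0.71, adjusted p = 0.0555), without doxycycline replicate 4 (-0.66, adjusted p = 0.0506) and without saline replicate 3 (-0.72, adjusted p = 0.0595). It was also lost without saline replicates 2 and 4 (-0.72, adjusted p = 0.0568). Over all 20 alternatives the difference kept its sign and ran from -0.81 to -0.62.

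Cldn4, a sealing claudin whose gene neighbours Cldn3 with 0 protein-coding genes between them in the RefSeq table, was not called. Its brighter probe (mm9 chr5:135421347-135421406, minus strand) read -0.47, 0.38, -0.30 and 0.29 in doxycycline ilea, against 0.18, 0.35, 0.12 and -1.40 in saline ilea. Saline replicate 4 stood far below the other 7 arrays. The difference was 0.16 (SE 0.395, 95% interval -0.73 to 1.06, limma adjusted p = 0.813), and without that array it turned to -0.24 (adjusted p = 0.516). A second Cldn4 probe (mm9 chr5:135422135-135422194, minus strand) gave 0.34 (SE 0.520, adjusted p over all probes = 0.699), was well above background on 3 of the 4 saline arrays, and was also lowest in saline replicate 4. Whether Cldn3 and Cldn4 responded unequally was not tested.

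**Figure D2:**
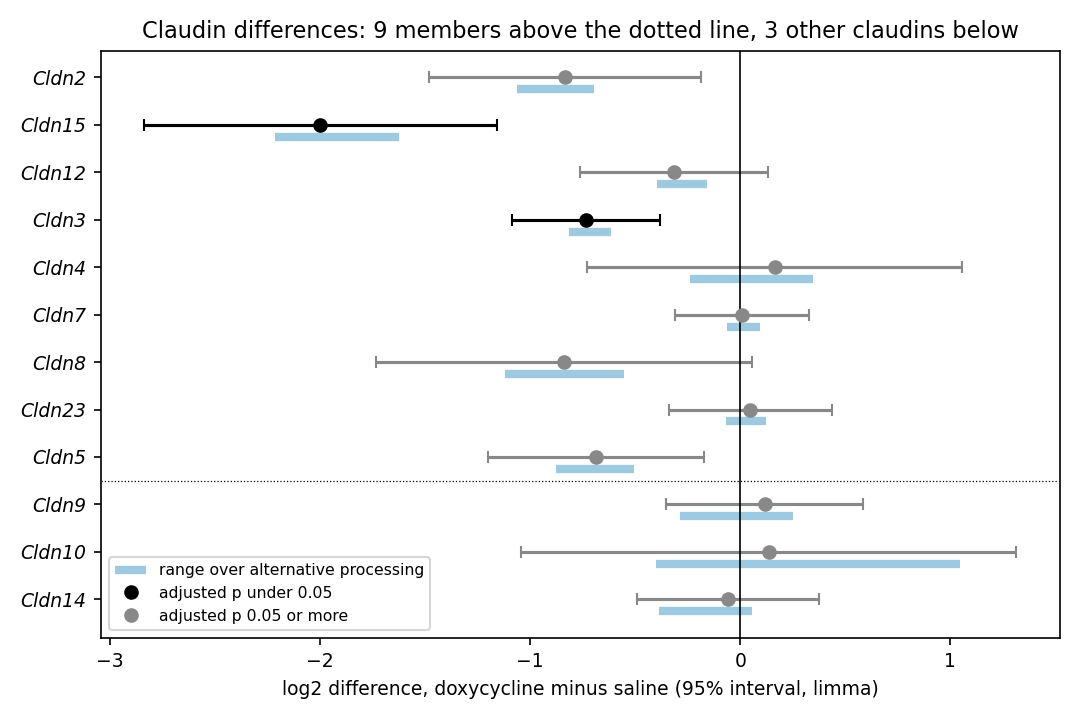
Log2 difference of each tested claudin, doxycycline minus saline, with its 95% interval from limma; the blue bar is the range of the difference over the alternative settings. Only the intervals of Cldn15, Cldn3, Cldn2 and Cldn5 among the 12 claudins exclude 0, and black marks the 2 with an adjusted p under 0.05.

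Cldn7, which lies along the basolateral membrane and binds EpCAM, was the steadiest member. Its probe (mm9 chr11:69781255-69781314, plus strand) read 8.03, 7.67, 7.87 and 7.69 in doxycycline ilea, against 7.77, 7.87, 7.8 and 7.79 in saline ilea. The saline arrays lay inside the doxycycline range, and the means nearly coincided, at 7.82 ± 0.17 in doxycycline ilea and 7.81 ± 0.04 in saline ilea (SD, n = 4 each). The difference was 0.01 (SE 0.141, limma adjusted p = 0.974), with a 95% interval of -0.31 to 0.33 that leaves out changes as large as that fitted for Cldn3. Without saline replicates 2 and 4 the difference was 0.03. Cldn23, an epithelial claudin of the gut surface, ranged over -0.63 to -0.36 in doxycycline ilea and -0.87 to -0.30 in saline ilea on its probe (mm9 chr8:36888537-36888596, minus strand). Its difference of 0.05 (SE 0.172, 95% interval -0.34 to 0.44, limma adjusted p = 0.879) was smaller than the spread between arrays, and without saline replicates 2 and 4 it was 0.11.

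Cldn8, a sealing claudin best known from the distal colon and kidney, read -0.06, 0.34, -1.11 and -1.20 in doxycycline ilea, against 0.30, 0.22, -0.22 and 1.02 in saline ilea (mm9 chr16:88561135-88561194, minus strand). Doxycycline replicates 3 and 4 lay under all saline arrays, whereas replicates 1 and 2 lay among them. The difference of -0.84 (SE 0.396, 95% interval -1.74 to 0.06, limma adjusted p = 0.183) did not pass the threshold, and without saline replicates 2 and 4 it was -0.55. Doxycycline replicates 3 and 4 were also the lowest 2 doxycycline arrays for Cldn15, Cldn2 and Cldn3. Over all 9 members the mean deviation from the saline mean was -0.56, -0.27, -0.79 and -0.69 in doxycycline replicates 1 to 4, against -0.05, -0.05, 0.08 and 0.03 in saline replicates 1 to 4.

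Cldn5, the main claudin of vascular endothelium that is also made by some gut epithelial cells, read -0.95, -0.23, -0.32 and -0.15 in doxycycline ilea, against 0.25, 0.19, 0.68 and -0.03 in saline ilea (mm9 chr16:18778046-18778105, plus strand). The groups did not overlap, but the nearest arrays were 0.12 apart. The difference was -0.69 (SE 0.227, 95% interval -1.20 to -0.17), with a limma adjusted p of 0.0763, short of the threshold, and an exact permutation p of 0.0286. Without saline replicates 2 and 4 it was -0.88 with an adjusted p of 0.0906. Markers of blood endothelium ran the other way. Of 15 tested, 3 rose and 0 fell (all genes: 5.94% and 7.9%), with a median difference of 0.47. Their summed level (linear signal relative to the array's 75th percentile) was 40.4 to 51.1 in doxycycline ilea and 31.4 to 39.1 in saline ilea. Of the 15, 11 were well above background on all 8 arrays. Erg, also among the 15, met the filter through its 4 doxycycline arrays alone and entered the count and median that way. Its doxycycline mean of -3.35 lay under the saline arrays' lowest levels well above background, so it has no fold. Tie1, a receptor of endothelial cells, rose by 1.78 (adjusted p = 0.00209) and kept its call under all 20 alternatives. The others that rose, Eng and Esam, lost theirs under 12 and 7. These endothelial values stand beside the Cldn5 result, and their part in it was not tested.

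Cldn1, a sealing claudin best known from skin, was not well above background on any of the 8 arrays on its 1 probe (mm9 chr16:26357372-26357431, minus strand), so it was not tested and has no fold change. Of the 13 other claudins on the array, 3 were tested and 0 passed the threshold or an unadjusted p under 0.05. Cldn9 differed by 0.12 (limma adjusted p = 0.742), Cldn10 by 0.14 (adjusted p = 0.888) and Cldn14 by -0.06 (adjusted p = 0.871). Without saline replicates 2 and 4 the differences were 0.05 for Cldn9, 1.05 for Cldn10 (adjusted p = 0.136) and -0.27 for Cldn14 (adjusted p = 0.344). All 3 were dim, well above background on 3 of 4 saline arrays for Cldn9 and 2 of 4 for Cldn10 and Cldn14. A further 6 (Cldn6, Cldn16, Cldn17, Cldn18, Cldn19 and Cldn24) were not well above background on any array, and Cldn11, Cldn13, Cldn20 and Cldn22 on 1 to 3 doxycycline arrays and at most 1 saline array.

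**Figure D3:**
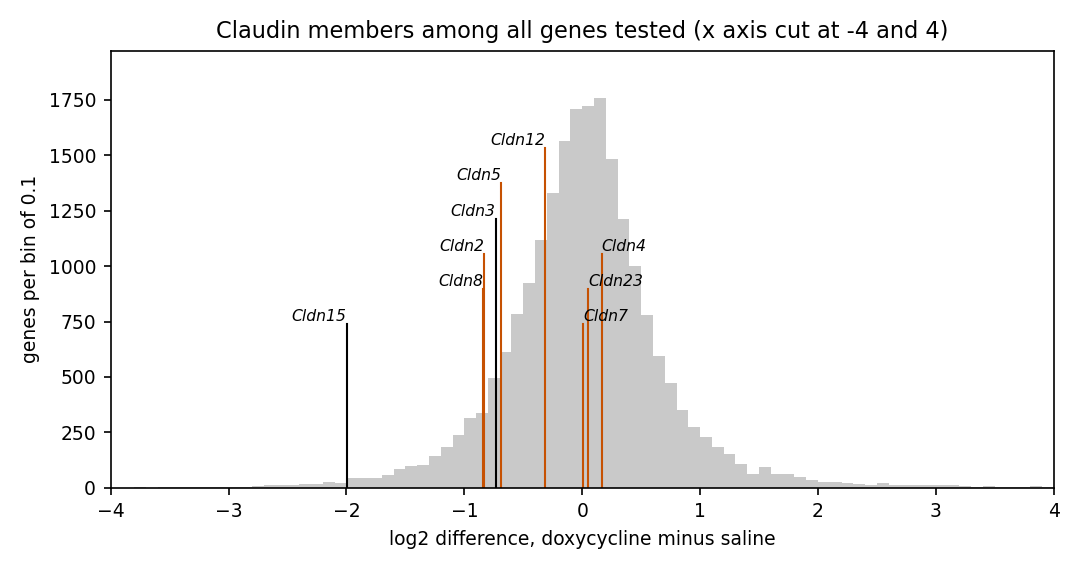
Histogram of the log2 differences of all 21362 genes tested, doxycycline minus saline, in bins of 0.1, with the 9 tested claudins as vertical lines of arbitrary height (black for an adjusted p under 0.05). Cldn15 lies in the far lower tail, while Cldn4, Cldn7 and Cldn23 lie in the centre of the distribution.

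Among the membrane proteins that share the tight junction with claudins, 2 of 14 tested genes rose and 1 fell, with a median difference of -0.02. Over all genes tested 5.94% rose and 7.9% fell, and several of the list counts here and below lie near those shares. No list was tested as a set. Ildr1, an angulin of tricellular contacts, rose by 1.85 (SE 0.153, limma adjusted p = 4.00e-04). Cxadr, the coxsackievirus and adenovirus receptor, read 4.09, 3.47, 3.62 and 3.36 in doxycycline ilea and averaged 4.86 ± 0.07 in saline ilea. It fell by 1.23 (SE 0.182, adjusted p = 0.00388), although the mean of its probes gave -0.47 with an adjusted p of 0.0795. Esam, an adhesion molecule that is also an endothelial marker, rose by 0.66 (adjusted p = 0.0276), and Igsf5 (JAM family) differed by 0.34 (adjusted p = 0.143).

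Of 21 tested scaffold and polarity genes 3 rose and 1 fell (all genes: 5.94% and 7.9%), with a median of 0.13. That median is the value of Mpdz, a dim probe well above background on 1 of 4 saline arrays only. Amotl1, also among the 21, was well above background on 0 of 4 saline arrays. Tjp3, a zonula occludens scaffold, read 5.58, 5.38, 5.13 and 5.38 in doxycycline ilea, against 6.40, 6.15, 6.36 and 6.33 in saline ilea, without overlap, and fell by 0.95 (SE 0.15, limma adjusted p = 0.0051). Mpp5, a polarity scaffold, rose by 0.96 (adjusted p = 0.0127), Amotl2, an angiomotin, by 0.78 (adjusted p = 0.0279) and Pard6b, a polarity adaptor, by 1.25 (adjusted p = 0.0485; well above background on 3 of 4 saline arrays). Of 16 genes for epithelial adhesion 1 fell and 0 rose, with a median of -0.19. That gene was the desmosomal linker Dsp (-0.72, adjusted p = 0.0113), while Pvrl3, a nectin, differed by -0.48 (adjusted p = 0.0503) and the catenin Ctnnd1 by -0.49 (adjusted p = 0.0706). Pvrl4 did not reach well above background in saline ilea.

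Of 11 surface proteins listed as claudin binding or claudin cleaving, 4 fell and 1 rose (all genes: 7.9% and 5.94%), with a median of -0.26. The tetraspanin Tspan1 fell by 0.98 (limma adjusted p = 0.00962), the ephrin Efna1 by 0.77 (adjusted p = 0.0262) and the tetraspanin Cd9 by 0.65 (adjusted p = 0.0395). Epha2, an ephrin receptor whose human form phosphorylates CLDN4, rose by 1.03 (adjusted p = 0.0349). The protease inhibitor Spint2, which guards EpCAM and CLDN7 from matriptase, was the fourth to fall (-0.56, adjusted p = 0.0414) and is named to complete the count. Among 16 kinase, phosphatase and trafficking genes 1 fell and 0 rose, with a median of -0.13. That gene was Prkca (protein kinase C alpha; -0.83, adjusted p = 0.0352), and Mylk (myosin light chain kinase) differed by -0.64 (adjusted p = 0.0704), Arhgef11 (a RhoA exchange factor) by -0.36 (adjusted p = 0.103) and Vps33b (vesicle sorting) by -0.44 (adjusted p = 0.122).

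Among 26 transcription factors known to act on claudin genes or in gut epithelium, 4 passed the threshold as higher and 2 as lower. The shares over all genes were 5.94% and 7.9%, and the median of the 26 was -0.29. Vdr, the vitamin D receptor, through which vitamin D raises CLDN2 and CLDN12 in intestinal cells, read 3.19, 2.71, 2.92 and 2.80 in doxycycline ilea, against 4.70, 4.47, 4.57 and 4.17 in saline ilea. It fell by 1.58 (SE 0.175, limma adjusted p = 0.00103), with a wide gap between the groups. Cdx2, a homeobox factor that drives the CLDN2 promoter in human intestinal cells, read 5.75, 5.36, 5.15 and 5.08 in doxycycline ilea, against 6.47, 6.31, 6.47 and 6.67 in saline ilea. It fell by 1.14 (SE 0.183, adjusted p = 0.00543), again without overlap. Grhl1, a Grainyhead factor, rose by 1.27 (SE 0.185, adjusted p = 0.00361). Tfcp2l1, a relative of the Grainyhead factors, rose by 0.94 (adjusted p = 0.015), and the repressor Snai1 by 1.35 (adjusted p = 0.026), although it was well above background on 3 of 4 saline arrays only. The fourth, Grhl3, was kept through its doxycycline arrays alone and was well above background on 0 of 4 saline arrays. Its doxycycline mean of -3.54 lay under the saline arrays' lowest levels well above background, so it has no fold and is not described as a rise.

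Of 17 transporters and channels that work beside the claudin pores, 1 rose and 1 fell (all genes: 5.94% and 7.9%), with a median of -0.38. The sodium-proton exchanger Slc9a3 read 3.60, 3.35, 2.59 and 2.70 in doxycycline ilea, against 2.22, 1.08, 1.26 and 1.70 in saline ilea. It rose by 1.5 (SE 0.314, limma adjusted p = 0.0168), while the mean of its probes gave 0.74 with an adjusted p of 0.239. The monocarboxylate transporter Slc5a8 fell by 0.73 (adjusted p = 0.0491), the chloride channel Cftr differed by -1.02 (adjusted p = 0.0648) and the magnesium transporter Cnnm4 by -0.71 (adjusted p = 0.0755). Several of these list calls depended on the processing or on single arrays. The alternatives were not examined for Spint2, Snai1 and Tfcp2l1. Of the 20 alternatives, Cd9 and Slc5a8 lost theirs under 10, Pard6b under 11, Epha2 and Prkca under 9, Esam and Efna1 under 7, Amotl2 under 6, Slc9a3 under 3, and Cxadr and Dsp under 1, whereas Ildr1, Tjp3, Mpp5, Tspan1, Vdr, Cdx2 and Grhl1 kept theirs under all 20.

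**Figure D4:**
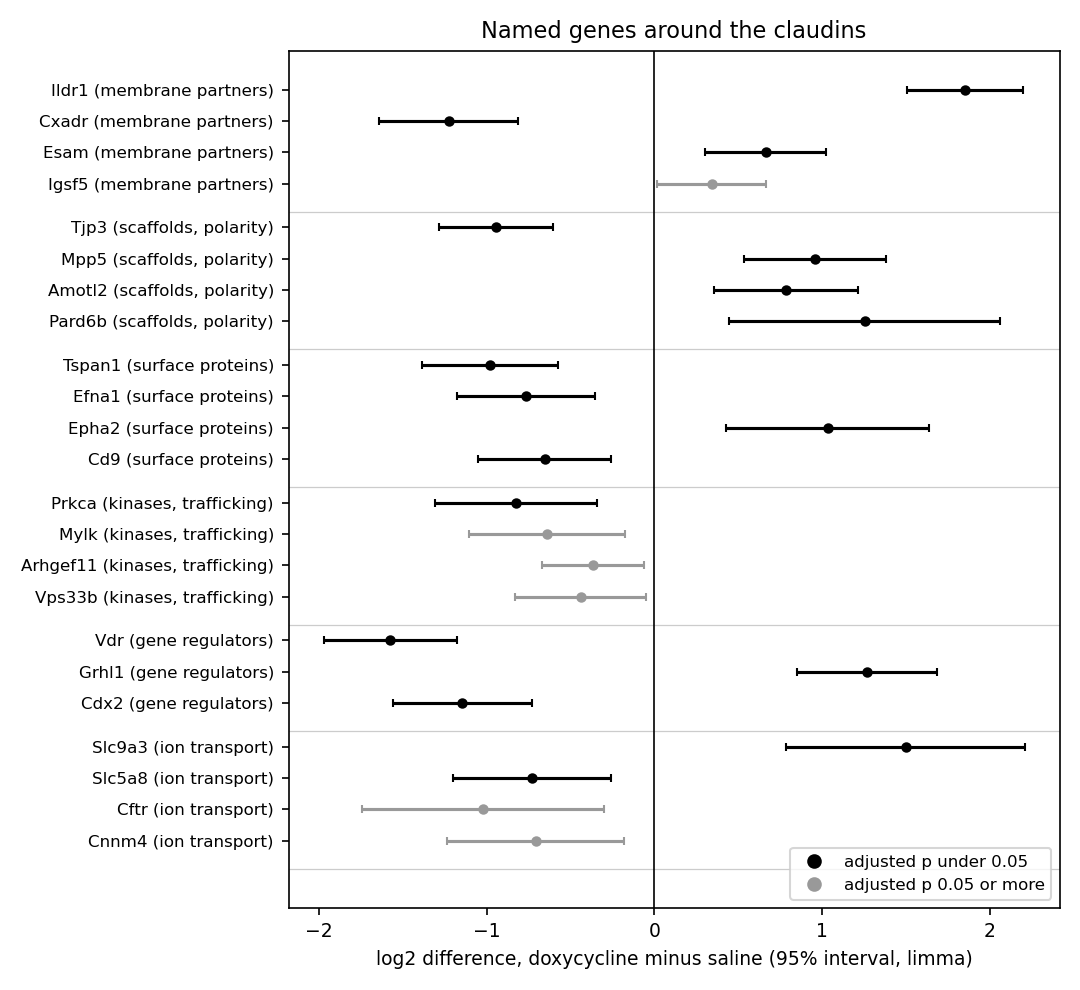
Log2 difference, doxycycline minus saline, with its 95% interval from limma for the 4 genes with the smallest p in each of 6 lists around the claudins. Grhl3, not well above background in saline ilea, is left out. Genes of the text outside those 4, such as Tfcp2l1, Snai1 and Spint2, are not drawn. Vdr, Cdx2, Cxadr and Tjp3 lie below 0 and Ildr1, Slc9a3 and Grhl1 above it.

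Markers of the cells that make claudins are given beside these results, and their part in the claudin differences was not tested. Over all genes tested 5.94% rose and 7.9% fell. In bulk RNA, fewer cells of a type and less RNA per cell cannot be told apart. Of 12 general epithelial markers 2 fell and 0 rose, with a median of -0.14. These were Cdx2 and the keratin Krt19, which fell by 0.61 (limma adjusted p = 0.0262), while Epcam differed by -0.35 (adjusted p = 0.136). The summed level of the 12 was 1713 to 2258 in doxycycline ilea and 1988 to 2237 in saline ilea. All 12 were well above background on all arrays, so the epithelium was present in both groups. Of 15 crypt and stem cell markers 7 fell and 0 rose, with a median of -0.69 and summed levels of 161 to 180.1 in doxycycline ilea and 172 to 303 in saline ilea. Among them the stem cell receptor Lgr5 fell by 1.5 (adjusted p = 0.00139), the stem cell factor Ascl2 by 2.40 (adjusted p = 0.00212) and Olfm4 by 1.68 (adjusted p = 0.00265). Of 11 goblet cell markers 10 fell and 0 rose, with a median of -1.76 and summed levels of 668 to 1052 in doxycycline ilea and 1871 to 2309 in saline ilea; the mucin Muc2 fell by 1.97 (adjusted p = 5.57e-04). Of 18 villus enterocyte markers 1, the lipoprotein gene Apob, rose (1.3, adjusted p = 0.032) and 0 fell, with a median of 0.23, and of 7 Paneth cell markers 0 rose or fell, with a median of -0.27. Krt19 lost its call under 7 of the 20 alternatives and Apob under 8.

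**Figure D5:**
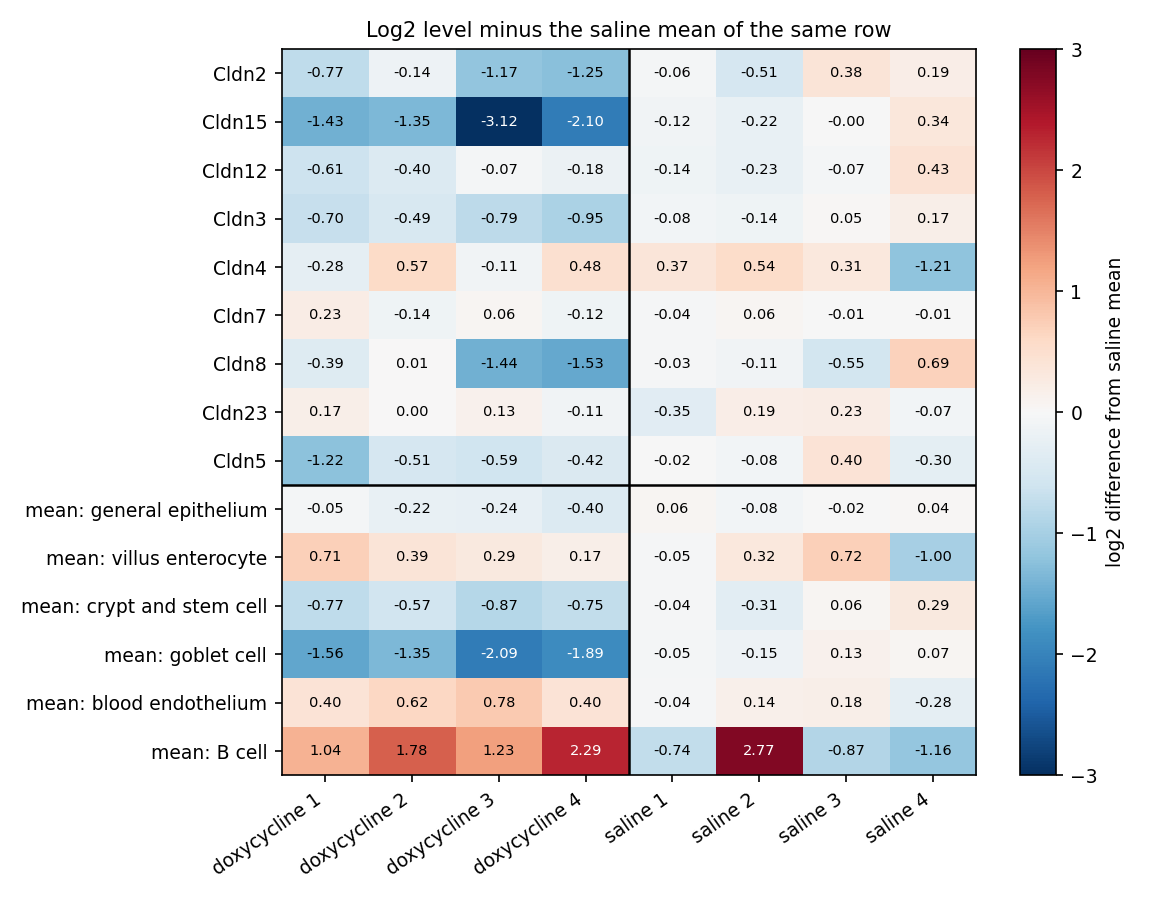
Level of each claudin, and mean of 6 marker lists, on each array minus the saline mean of the same row (log2 units; blue lower, red higher), doxycycline arrays left of the line and saline arrays right of it. Cldn15 and the goblet cell mean are lowest in doxycycline replicates 3 and 4. Among the saline arrays, replicate 2 stands highest in B cell markers and replicate 4 lowest in villus markers.

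Among cells outside the epithelium, smooth muscle (10 tested, median -0.26), enteric neurons and glia (9, median -0.07), T cells (8, median 0.10) and B cells (8, median 1.46) had 0 markers that passed the threshold. Fibroblast markers had 1 that rose (Pdgfra) and 1 that fell (Pi16) of 8. Macrophages had 2 that rose (Mrc1 and C1qb) and 1 that fell (Adgre1) of 6. Over all genes tested 5.94% rose and 7.9% fell. Lymphatic endothelium had 2 that rose of 4. Of 7 mesothelium markers 1 rose (Slurp1, at least 1.45-fold higher), while 5 lay under 0 and the median was -0.26. Of 4 neutrophil markers 2 rose (S100a9, and S100a8 at least 3.58-fold higher), with a median of 1.42. Slurp1 and S100a8 met the filter through their 4 doxycycline arrays. Their saline means, -4.76 and -4.38, lay under the saline arrays' lowest levels well above background. Flt4 (lymphatic endothelium), Blk (B cells), Camp (neutrophils) and Gfap (glia) also met the filter through their 4 doxycycline arrays alone. Slurp1 lost its call under 5 alternatives, S100a8 under 7 and S100a9 under 8. C1qb lost its call under 8, Adgre1 under 5 and Pdgfra under 4, whereas Pi16 and Mrc1 kept theirs under all. Of 15 housekeeping genes 1 rose, Hprt, the locus of the transgene, and their median was 0.09.

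For the 2 members that fell, the genes with the most similar profile were sought among 13876 named genes, as the smallest root-mean-square distance between centred log2 levels over the 8 arrays. For Cldn3 these were Tnik (distance 0.0549, difference -0.77), Ythdf3 (0.0691, -0.74) and Usp16 (0.0779, -0.64). For Cldn15 they were Ppp1r3c (0.248, -1.71), Ccr10 (0.253, -2.01) and Ugt2b5 (0.265, -2.1), all at larger distances than for Cldn3.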

How the data were processed

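Total RNA from mouse ileum was measured on 8 arrays, 4 per group, with 200 ng labelled per sample, per the labels. As deposited, each array's scanner file gives linear intensity per spot, and the submitters' processing notes name Agilent Feature Extraction 10.7.3.1. The deposited value table holds log2 values: each column is the scanner file's processed intensity as log2, shifted by a constant per array, with no gene centring and the same direction, and its column medians were -3.77, -3.92, -3.83 and -3.81 for the doxycycline arrays and -3.97, -3.70, -3.79 and -3.86 for the saline arrays. It served as an alternative. Flags for background, saturation and outliers were read as deposited, per the file headers; no probe spot was saturated, and 169 to 259 outlier spots per array were left out.

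Spots of a probe were averaged on the log2 scale, and each array's 75th percentile was subtracted. A probe was kept when well above background on at least 4 of 8 arrays, and a gene was represented by its brightest kept probe, which gave 21362 genes. Groups were compared with limma 3.58.1 (lmFit, eBayes) in R 4.3.3, with two-sided p-values adjusted by Benjamini-Hochberg over all genes. The members and gene lists were chosen with earlier results of these data known. The genes named are all members, every other tested claudin, Tnk1 and Hprt, up to 4 genes per list (3 per marker list) with the smallest p, and the 3 genes closest in profile to each member that fell. A few others are named to complete a count or to state its limit. Names are those of the array's design; all 23 claudin names match RefSeq symbols. Probe positions are the array's mm9 annotation, and promoters are RefSeq's in GRCm38.p6. The fit was tested on simulated data with independent scatter for each gene. Those data held no slide row or background difference between the groups, so that test does not address either. Replicate numbers recur in both groups, so deviations of same-numbered arrays from their group means were correlated (-0.04 to 0.11), which does not pair them. Precision is limited by the number of arrays.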

Additional observations from a re-analysis of the deposited data

Results flagged for a closer look

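Each of the 28 sets of 4 arrays, over the members' probes and the other tested claudins' probes, was examined for 1 array far from the others (Dixon's ratio above its 95% critical value), and 2 were found. Both are Cldn4 in saline replicate 4. On the brighter Cldn4 probe that array read -1.40, with the other saline arrays between 0.12 and 0.35. On the second Cldn4 probe it read -3.11, with the others between -1.01 and -0.86. Chance alone marks about 1 set in 20, and the 2 probes read the same RNA on the same array. The villus enterocyte markers were also lowest on that array, at -1.0 relative to the saline mean, and their part in the Cldn4 value was not tested.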

How the results depend on the processing

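Of 20 alternatives, Cldn15 kept its direction under all and lost its call under 1 (without saline replicates 2 and 4, -1.94), and Cldn3 kept its direction under all and lost its call under 5. Leaving out 1 array at a time gave -0.81 to -0.66 for Cldn3, -1.06 to -0.70 for Cldn2, -0.40 to -0.17 for Cldn12, -0.24 to 0.34 for Cldn4, -0.064 to 0.058 for Cldn7, -0.068 to 0.12 for Cldn23, -0.40 to 0.49 for Cldn10, -0.21 to 0.057 for Cldn14 and -0.061 to 0.25 for Cldn9. Array weights gave -0.98 for Cldn2 and -0.75 for Cldn5, both then past the threshold, -0.12 for Cldn4, -0.16 for Cldn12 and 0.68 for Cldn10. With no filter on dim probes Cldn5 passed at its value of -0.69. Without saline replicates 2 and 4 together Cldn3 was at -0.72 and Cldn4 at -0.17. Background correction by normexp turned Cldn10 to -0.37, Cldn9 to -0.28 and Gfap (0.49, a glial marker) to -0.33, moved Cldn14 to -0.38 (adjusted p = 0.0575), and a common floor turned Cldn10 to -0.28 and Cldn9 to -0.0023.

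The count of members that fell, 2, became 4 with no filter (Cldn1 among them, which was not well above background on any array), 4 with array weights, 1 with the replicate number as a block (Cldn3 at -0.73 with a limma adjusted p of 0.0698) and 0 without saline replicates 2 and 4, and ran from 1 to 3 with 1 array left out. It stayed at 0 for members that rose under all 20. Over all genes, 1268 rose and 1687 fell; array weights gave 2894 and 3377, the replicate block 787 and 905, and leaving out 1 array 648 to 1541 and 729 to 1870. With no filter 11809 fell, and without saline replicates 2 and 4 it was 1027. The replicate block is given for the shared numbers only, since 1 of 8 arrays correlated best with its own number. With no filter the median of all genes moved to -0.33 (by -0.35), and 13.5% of calls were higher, against 42.9%. That setting keeps probes at the floor: the 7 claudin probes not well above background on any array averaged -7.07 to -5.20 on doxycycline arrays and -5.10 to -4.61 on saline arrays, all 7 lower with doxycycline. The cause of the other changes was not tested. Slide row could not be fitted, as each row holds 1 group.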
